A study of Arabidopsis thaliana with 24 samples.

Results

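Receptor-like kinases and aspartyl proteases were represented by 4 genes, each with 1 probe of its own. They were AT3G09010 and AT1G11050, which encode putative receptor-like protein kinases, and AT3G51330 and AT1G03220, which encode proteins of the aspartyl protease family. The genes were taken by locus identifier from the probe table, which gives a gene for 181 of the 576 probes, and all 4 were found. Levels came from 24 one-colour spotted arrays of total RNA from leaves of Arabidopsis thaliana, accession Col. The seedlings were 10 days old, were grown in MS medium at 22 °C with 12 h of light, and were moved to fresh liquid medium 48 h before treatment. There were 8 groups of 3 arrays. Wild type and the T-DNA insertion line mpk11 (SALK049352), a single line for the gene of the MAP kinase MPK11, each received 1 µM flg22 or water (mock) for 30 min or 3 h. The arrays of each group were numbered as sets 1 to 3. The number of arrays limits the precision.

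Plants perceive the flagellin peptide flg22 at the cell surface through the receptor kinase FLS2, which acts with the co-receptor BAK1. Cytoplasmic kinases and a MAP kinase cascade then relay the signal to the nucleus, where transcription changes in successive waves. Many receptor-like kinase genes are themselves transcribed more after elicitation. Aspartyl proteases cleave proteins with a pair of catalytic aspartates, and several secreted plant members have been linked to defence. AT1G03220 is known as SAP1, a secreted protease described to act on a protein of Pseudomonas bacteria. A precise role in flagellin signalling is not given here for the other 3 genes.

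All levels and differences below are on the deposited log scale, taken as log2 although its base is not stated. RNA was measured in bulk, so more cells using a gene and more RNA per cell cannot be told apart. The median value of an array ran from 3.34 to 3.76 after mock treatment and from 4.02 to 4.17 after flg22, so the flg22 responses depend on how arrays are scaled. Differences between the responses at 3 h and 30 min depend on it less. The median flg22 change of all probes was 0.06 and 0.14 in wild type at 30 min and 3 h, and 0.07 and 0.20 in mpk11. After each array was centred on its median, these became -0.42, -0.39, -0.43 and -0.42. On each array the 576 probes held 311 to 405 distinct values, so many probes shared a value. Array medians, quantiles and shares of all probes rest in part on such ties, whose cause was not tested. None of the 10 leaf and 7 root marker genes was among the named probes, so the labelled tissue was not checked, nor could MPK11 itself be used to check the genotype.

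By their calls the 4 genes followed 3 time courses after flg22, and each course appeared in both genotypes. The kinase gene AT1G11050 rose at 30 min and had no detectable rise at 3 h. The protease gene AT3G51330 did the opposite, with a rise at 3 h and none detectable at 30 min. The kinase gene AT3G09010 and the protease gene AT1G03220 were higher at both times with the arrays as deposited. They are grouped because no time difference passed, although AT3G09010 responded more at 3 h in 3 of 3 sets of each genotype. This shared course depended on the scaling. The rise of AT3G09010 at 30 min shrank to 0.03 after median centring, and AT1G03220 did not pass at either time after quantile normalization.

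**Figure D1:**
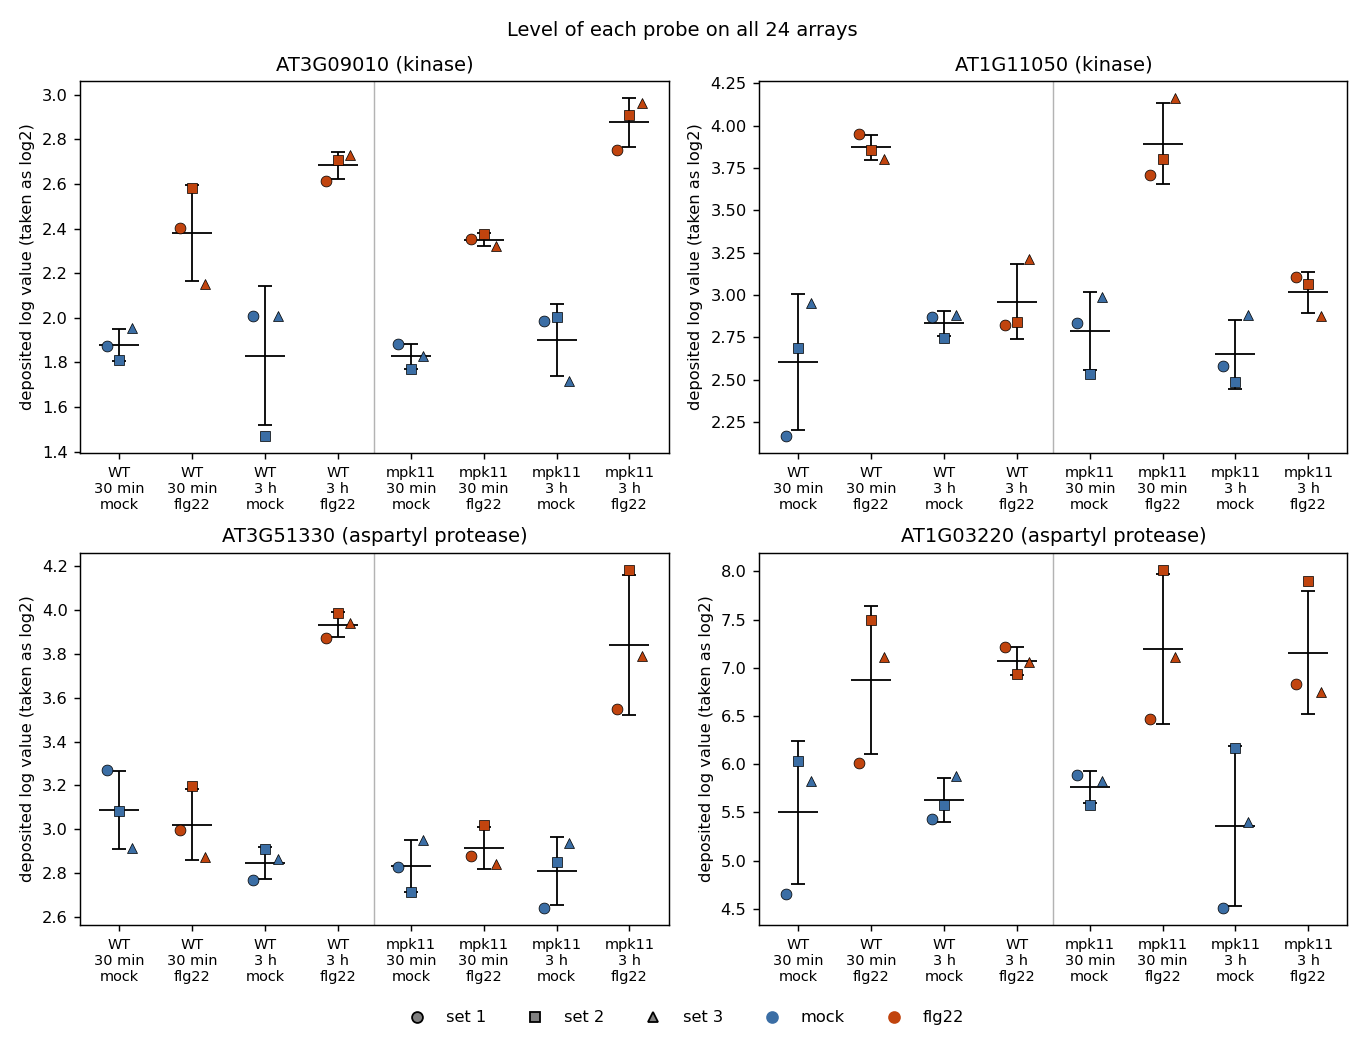
Deposited log value (y axis, taken as log2) of the 4 probes in the 8 groups (x axis), with a point for each array shaped by set, and the mean ± SD (n = 3) in black. AT1G11050 is highest with flg22 at 30 min, AT3G51330 with flg22 at 3 h, and AT3G09010 and AT1G03220 are higher with flg22 than in mock at both times.

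AT1G11050, a probable receptor-like kinase gene, showed the early course. In wild type at 30 min the mock arrays read 2.17, 2.69 and 2.95 and the flg22 arrays 3.95, 3.86 and 3.80 (log2, sets 1 to 3). Every flg22 array lay above every mock array. In mpk11 at that time the mock values were 2.83, 2.54 and 2.99 and the flg22 values 3.71, 3.80 and 4.16, again without overlap. The flg22 response was 1.27 in wild type (SE 0.18; limma adjusted p = 3.84e-06) and 1.11 in mpk11 (SE 0.18; limma adjusted p = 2.53e-05). By size these responses had ranks 72 and 83 among the 576 probes. After median centring they were 0.80 and 0.61 (limma adjusted p = 7.32e-04 and 0.00515) and after quantile normalization 0.94 and 0.67 (limma adjusted p = 1.47e-04 and 0.00309).

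At 3 h no flg22 response of AT1G11050 was detected, although in mpk11 the flg22 arrays of sets 1 and 2 were still higher than mock by 0.52 and 0.58. Wild type read 2.87, 2.75 and 2.88 in mock and 2.82, 2.84 and 3.22 with flg22, and the groups overlapped. In mpk11 the values were 2.58, 2.49 and 2.88 in mock and 3.11, 3.06 and 2.88 with flg22, with the set 3 arrays almost equal. The response at 3 h was 0.13 in wild type (95% interval -0.24 to 0.50; limma adjusted p = 0.655) and 0.37 in mpk11 (95% interval -0.004 to 0.74; limma adjusted p = 0.114). The mpk11 value passed without set 3, at 0.55 (limma adjusted p = 0.0372). After centring on array medians both turned negative, and the wild-type value passed the threshold at -0.40 (limma adjusted p = 0.0411). In that comparison the median change of all probes was then -0.39, and 256 probes passed as lower, against 37 as deposited. The wild-type value thus does not set AT1G11050 apart from the typical probe.

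The fall of the AT1G11050 response between the times was itself tested. The response was smaller at 3 h in 3 of 3 sets of each genotype, and fell by 1.14 in wild type (SE 0.25; limma adjusted p = 0.00121) and by 0.74 in mpk11 (SE 0.25; limma adjusted p = 0.0318). Within sets the wild-type flg22 level differed by -0.91 ± 0.29 between 3 h and 30 min (SD, n = 3), and the mock level by 0.23 ± 0.41. In set 1 alone these were -1.13 and 0.70, so part of its fall lay in the mock arrays. The mpk11 levels differed by -0.88 ± 0.36 with flg22 and -0.14 ± 0.10 in mock. In wild type the fall ranged from -1.83 in set 1 to -0.52 in set 3, and without set 1 it no longer passed (-0.80, limma adjusted p = 0.0863). In mpk11 it did not pass without mock array 2 or flg22 array 3 at 30 min, without array 3 of either treatment at 3 h, or without set 2 or 3 (limma adjusted p from 0.0693 to 0.218).

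AT3G51330, an aspartyl protease family gene, showed the late course. Its wild-type arrays at 30 min read 3.27, 3.09 and 2.91 in mock and 3.00, 3.20 and 2.87 with flg22. In mpk11 the corresponding values were 2.83, 2.71 and 2.95 in mock and 2.88, 3.02 and 2.84 with flg22. The groups overlapped in both genotypes. The response was -0.07 in wild type (95% interval -0.37 to 0.23; limma adjusted p = 0.909) and 0.08 in mpk11 (95% interval -0.22 to 0.39; limma adjusted p = 0.850). After centring on array medians these values became -0.54 and -0.41 and passed as falls (limma adjusted p = 0.0152 and 0.0443) relative to the array medians. Such falls were common there, with 253 probes passing as lower in wild type and 266 in mpk11, against 1 and 9 as deposited. The median change of all probes was then -0.42 and -0.43, so these falls do not set AT3G51330 far apart from the typical probe.

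At 3 h AT3G51330 was higher with flg22. Wild-type mock arrays read 2.77, 2.91 and 2.86 and flg22 arrays 3.87, 3.99 and 3.94, and the response within sets was nearly constant at 1.10, 1.08 and 1.08. In mpk11 the mock arrays read 2.64, 2.85 and 2.94 and the flg22 arrays 3.55, 4.18 and 3.79. Neither genotype had overlapping groups. The response was 1.08 in wild type (SE 0.15; limma adjusted p = 1.43e-06) and 1.03 in mpk11 (SE 0.15; limma adjusted p = 2.86e-06). It was smaller but still passed after median centring (0.56 and 0.41; limma adjusted p = 0.00873 and 0.0421) and after quantile normalization (0.62 and 0.48; limma adjusted p = 0.00374 and 0.0210).

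Between the times the AT3G51330 response grew by 1.15 in wild type (SE 0.21; limma adjusted p = 1.29e-04) and by 0.95 in mpk11 (SE 0.21; limma adjusted p = 0.00106). It was larger at 3 h in 3 of 3 sets of each genotype, by 0.97 to 1.38 in wild type and by 0.85 to 1.02 in mpk11. Both differences passed under every alternative that was run, including median centring, where they were 1.10 and 0.82. The wild-type mock level differed by -0.24 ± 0.23 between 3 h and 30 min within sets (SD, n = 3), and the flg22 level by 0.91 ± 0.14, so most of the difference lay in the flg22 arrays.

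**Figure D2:**
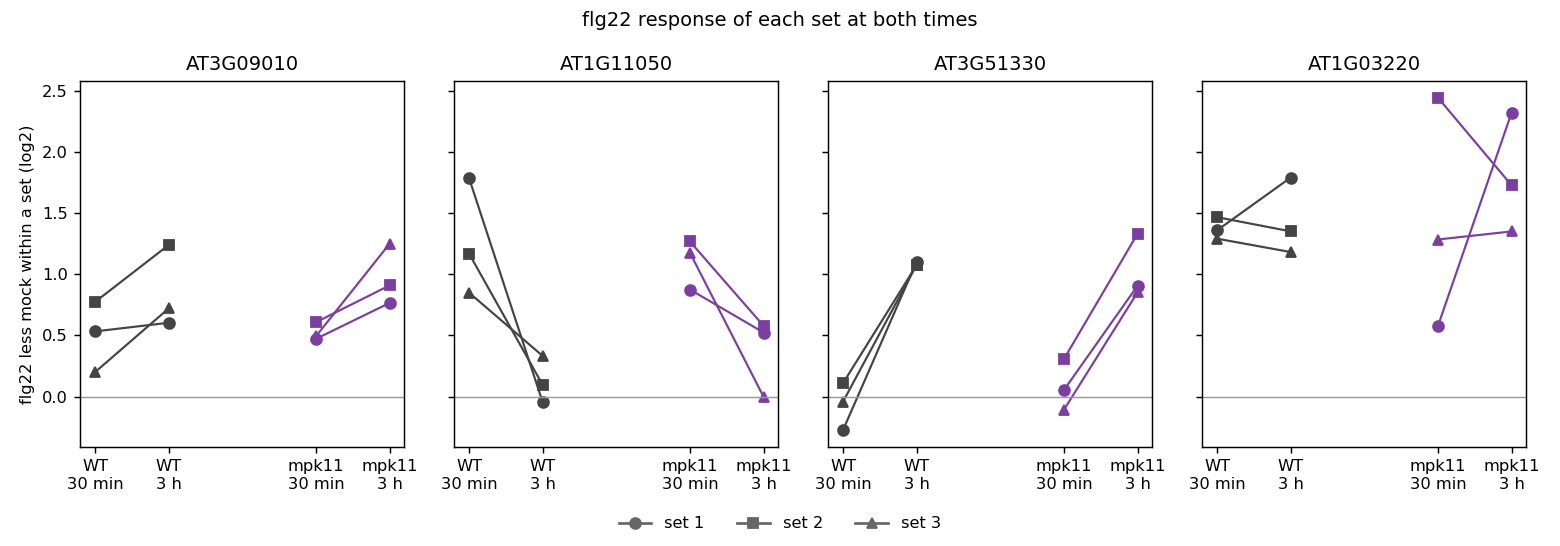
flg22 response within each set (flg22 less mock of the same number, y axis, log2) at 30 min and 3 h (x axis) for wild type in grey and mpk11 in purple, with a line for each set. Lines fall in all 6 cases for AT1G11050, rise in all 6 for AT3G51330 and for AT3G09010, and go both ways for AT1G03220.

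AT3G09010, the other receptor-like kinase gene, had the lowest levels of the 4 probes and rose at both times. In wild type at 30 min the mock arrays read 1.87, 1.81 and 1.95 and the flg22 arrays 2.40, 2.58 and 2.15. At 3 h they read 2.01, 1.47 and 2.01 in mock and 2.61, 2.71 and 2.73 with flg22. No flg22 array fell within the mock range at either time. The response was 0.50 at 30 min (SE 0.14; limma adjusted p = 0.0102) and 0.85 at 3 h (SE 0.14; limma adjusted p = 2.53e-05).

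At 30 min in mpk11 AT3G09010 read 1.88, 1.77 and 1.83 in mock, against 2.35, 2.38 and 2.32 with flg22. The values at 3 h were 1.987, 2.002 and 1.715 in mock and 2.75, 2.91 and 2.96 with flg22. These groups did not overlap either. The response was 0.52 at 30 min (SE 0.14; limma adjusted p = 0.00703) and 0.97 at 3 h (SE 0.14; limma adjusted p = 3.98e-06).

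The AT3G09010 response was larger at 3 h in 3 of 3 sets of each genotype, but the difference did not pass: 0.35 in wild type (95% interval -0.06 to 0.77; limma adjusted p = 0.242) and 0.45 in mpk11 (95% interval 0.04 to 0.86; limma adjusted p = 0.102). The wild-type difference was 0.17 without mock array 2 at 3 h, and the mpk11 difference 0.30 without set 3. This probe was dim, with group means in the lowest 2.08% to 3.47% of probes in mock and 9.20% to 24.8% with flg22. The early rise depended on the scaling, since it shrank to 0.03 in both genotypes after median centring (limma adjusted p = 0.831 and 0.867), while the rise at 3 h still passed there at 0.32 and 0.35 (limma adjusted p = 0.0321 and 0.0205). In wild type it also lost its call without flg22 array 2, without set 1 or 2, or with only the 2 compared groups in the fit, and in mpk11 without set 1 or 3 (limma adjusted p from 0.0660 to 0.134).

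AT1G03220 (SAP1) had the highest levels of the 4 probes and the widest spread. In wild type at 30 min the mock arrays read 4.65, 6.03 and 5.82 and the flg22 arrays 6.01, 7.50 and 7.11. The groups just touched, because set 1 with flg22 was about as low as set 2 in mock. Within sets, however, the response was 1.36, 1.47 and 1.29, a spread of 0.09 (SD, n = 3) against 0.74 for the mock arrays and 0.77 for the flg22 arrays. At 3 h the wild-type values were 5.43, 5.58 and 5.88 in mock and 7.22, 6.93 and 7.06 with flg22, without overlap.

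At 30 min in mpk11 AT1G03220 read 5.89, 5.57 and 5.82 in mock, against 6.47, 8.01 and 7.11 with flg22. At 3 h it read 4.51, 6.17 and 5.40 in mock and 6.83, 7.90 and 6.75 with flg22. No groups overlapped, yet the response within sets ranged from 0.58 to 2.44 at 30 min and from 1.35 to 2.32 at 3 h. Set 2 was the highest of the flg22 arrays at both times in this genotype.

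The AT1G03220 response was 1.37 in wild type at 30 min (SE 0.44; limma adjusted p = 0.0255) and 1.44 at 3 h (SE 0.44; limma adjusted p = 0.0106). In mpk11 it was 1.43 (SE 0.44; limma adjusted p = 0.0180) and 1.80 (SE 0.44; limma adjusted p = 0.00173). Fitted with sets as a replicate block, the same differences had an SE of 0.33, and all 4 passed. The response did not differ detectably between the times, at 0.07 in wild type (95% interval -1.22 to 1.36; limma adjusted p = 0.972) and 0.36 in mpk11 (95% interval -0.92 to 1.65; limma adjusted p = 0.725). These intervals, from the fit that leaves out the set, are wide enough to hold a change as large as those of AT1G11050 and AT3G51330. With sets as a replicate block the SE of the time difference was 0.46 in each genotype, against 0.62 here. The difference stayed undetected there (limma adjusted p = 0.955 for wild type and 0.595 for mpk11). Intervals of the block fit, which this smaller SE makes narrower, were not computed. Whether they still hold changes of that size was not tested.

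After median centring the AT1G03220 response was between 0.90 and 0.94 in wild type at both times and in mpk11 at 30 min and did not pass (limma adjusted p from 0.0668 to 0.0752), while at 3 h in mpk11 it passed at 1.18. After quantile normalization it did not pass in any of the 4 comparisons (from 0.76 to 0.95; limma adjusted p from 0.0882 to 0.181). The calls at 30 min were lost in wild type without mock array 1, flg22 array 2 or 3, or set 3, and in mpk11 without flg22 array 2, mock array 2, or set 2 or 3 (limma adjusted p from 0.0602 to 0.254). In wild type at 3 h the call was lost without set 3 (limma adjusted p = 0.100).

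**Figure D3:**
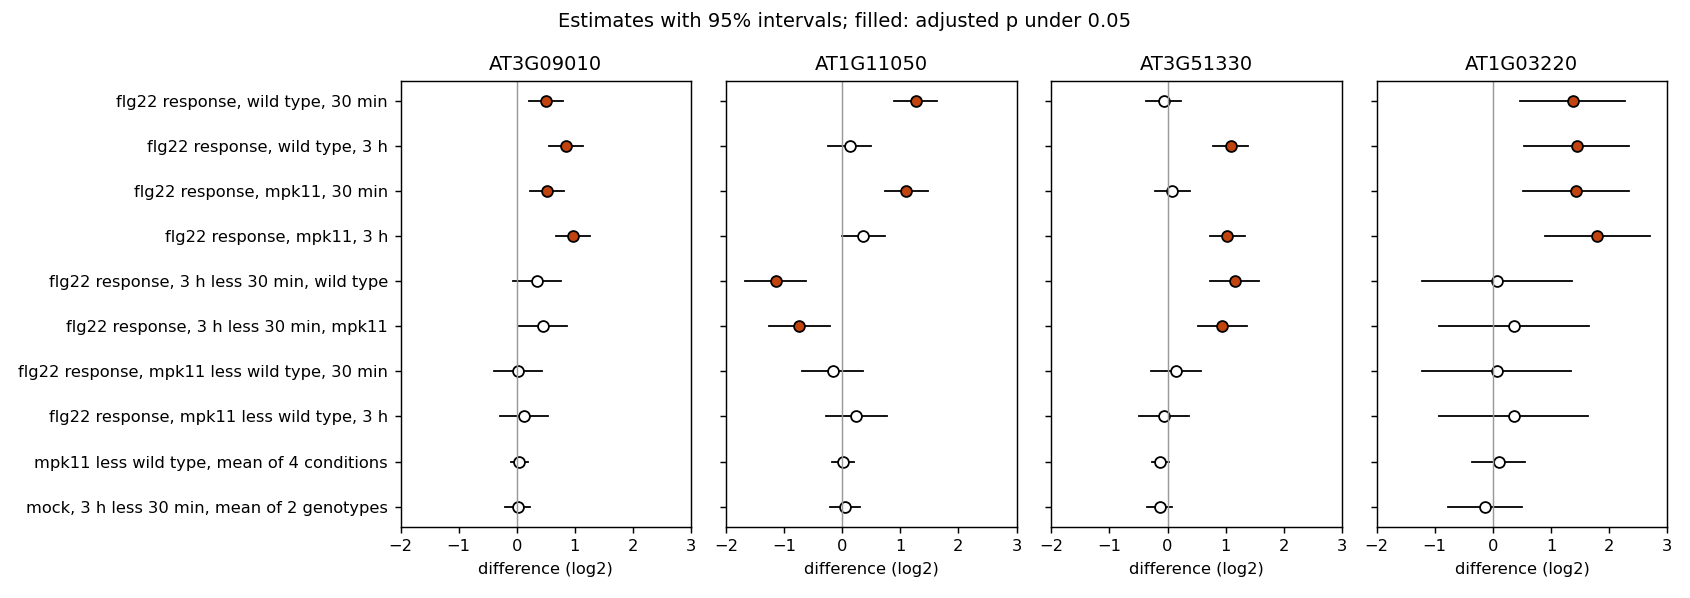
Estimate and 95% interval (x axis, log2) of the 10 comparisons (y axis) for each gene, filled where the limma adjusted p was under 0.05. Filled points are the responses of AT3G09010 and AT1G03220 at both times, those of AT1G11050 at 30 min and AT3G51330 at 3 h, and the time differences of the last pair, while no point of a genotype comparison is filled.

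Counted over the 4 genes, 3 were higher with flg22 at 30 min and 3 at 3 h, the same in both genotypes. Over all probes 20.3% of probes were higher in wild type and 20.5% in mpk11 at 30 min, and 31.9% and 34.4% at 3 h. The genes were chosen with earlier results of these data known, so their share is a description. Of the 4 genes 1, AT3G51330, had a larger response at 3 h, where 16.1% of probes did in wild type and 15.6% in mpk11. AT1G11050 had a smaller one, where 11.5% and 12.2% did.

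The 3 time courses were also counted over all probes, requiring the same calls in both genotypes. The early course of AT1G11050 (higher at 30 min, not passing at 3 h, response smaller at 3 h) was met by 15 probes (2.60%), of which 7 are named. The late course of AT3G51330 was met by 53 probes (9.20%), of which 10 are named. Higher at both times with no passing difference, as for AT3G09010 and AT1G03220, were 31 probes (5.38%), of which 10 are named.

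The order of the 8 group means shows how far neighbouring groups were apart. For AT1G11050 both flg22 groups at 30 min (3.89 ± 0.24 in mpk11 and 3.87 ± 0.08 in wild type, SD, n = 3) overlapped each other, stood clear of all others, and were followed by 6 groups between 3.02 and 2.60, each of which overlapped the next. For AT3G51330 both flg22 groups at 3 h (3.93 ± 0.06 in wild type and 3.84 ± 0.32 in mpk11) stood clear of 6 overlapping groups between 3.09 and 2.81. AT3G09010 gave 3 steps below its top group: mpk11 at 3 h with flg22 (2.88 ± 0.11), wild type at 3 h with flg22 (2.68 ± 0.06), both flg22 groups at 30 min (2.38 ± 0.22 and 2.35 ± 0.03), and the 4 mock groups between 1.90 and 1.83. The gaps around the wild-type 3 h group were only 0.02 and 0.03, less than the SD of the groups beside them. By mean, AT1G03220 had the 4 flg22 groups between 7.20 and 6.87 above the 4 mock groups between 5.76 and 5.36. Neighbouring groups of the same treatment overlapped. The flg22 group with the lowest mean (wild type at 30 min) stood 0.12 clear of the mock group with the highest mean (mpk11 at 30 min). The arrays of the 2 treatments did not fully separate, since the lowest flg22 array (6.01, wild type at 30 min) lay below the highest mock arrays of wild type at 30 min (6.03) and mpk11 at 3 h (6.17).

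No difference between mpk11 and wild type was detected for these 4 genes. Averaged over the 4 conditions, mpk11 differed from wild type by 0.05 for AT3G09010 (95% interval -0.10 to 0.19), by 0.02 for AT1G11050 (-0.17 to 0.20), by -0.12 for AT3G51330 (-0.27 to 0.03) and by 0.10 for AT1G03220 (-0.36 to 0.55), with limma adjusted p from 0.734 to 0.991. The flg22 response at 30 min differed between genotypes by 0.02 for AT3G09010, -0.16 for AT1G11050, 0.15 for AT3G51330 and 0.06 for AT1G03220, mpk11 less wild type. At 3 h the differences were 0.12, 0.24, -0.06 and 0.36. Intervals of these differences, from the fit that leaves out the set, reached at most 0.76 from 0 for AT3G09010, AT1G11050 and AT3G51330. For AT1G03220 they reached 1.64. With sets as a replicate block the SE of the AT1G03220 response difference was 0.46 at each time, against 0.62 here. In limma no probe passed in any of these 3 comparisons (0%), and 49, 7 and 8 probes had an unadjusted p under 0.05. Leaving out single sets moved some of these differences by over 1.5 times without any passing, such as the mean difference of AT3G51330 (-0.058 without set 1) and the response difference of AT1G11050 at 3 h (0.075 without set 1 and 0.53 without set 3).

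None of the 4 genes passed for a change with time in mock, where 20.5% of probes did over both genotypes. From 30 min to 3 h mock levels differed by 0.01 for AT3G09010, 0.05 for AT1G11050, -0.13 for AT3G51330 and -0.14 for AT1G03220 (limma adjusted p from 0.466 to 0.959).

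**Figure D4:**
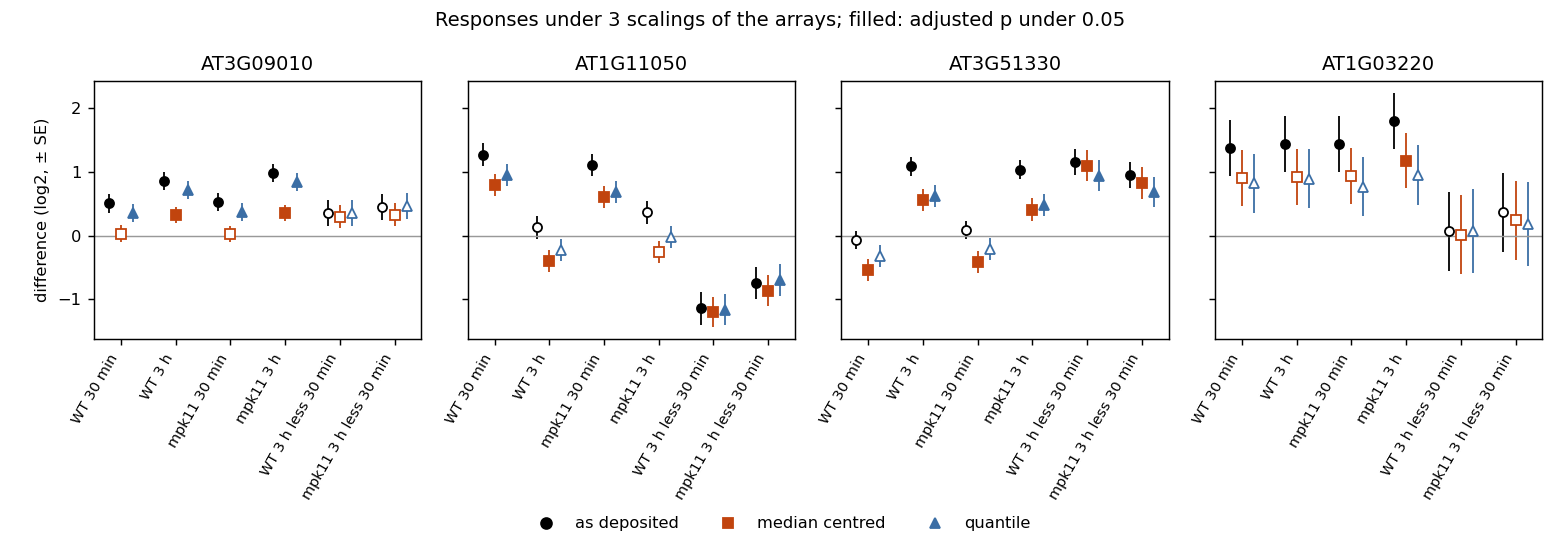
flg22 responses and their differences between the times (x axis) with arrays as deposited, centred on their medians or quantile normalized (y axis, log2 ± SE), filled where the limma adjusted p was under 0.05. Both rescalings lower all flg22 responses, while the time differences of AT1G11050 and AT3G51330 stay filled under each scaling.

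Few relatives of these genes could be compared. Of 16 other kinase genes, most of them of flagellin and other pattern signalling and among them FLS2, BAK1 and FRK1, none was among the named probes, so they were not analysed here. Of 14 other aspartic protease genes and relatives, AT5G19110 was measured. Its group means lay between 2.65 and 2.86, and its response did not pass in any of the 4 comparisons, with values from -0.19 to -0.03 (SE 0.19; limma adjusted p from 0.518 to 0.966). Of 13 genes linked to salicylic acid, 2 were measured. The glutaredoxin gene GRX480 rose at 30 min (0.72 in wild type and 0.57 in mpk11; limma adjusted p = 2.09e-04 and 0.00257) and UGT76B1, a glucosyltransferase of defence signalling, at 3 h (1.05 and 0.89; limma adjusted p = 1.12e-05 and 8.27e-05). In the RefSeq gene order AT1G03220 lies next to AT1G03230, and AT3G51330 next to AT3G51340, both relatives of the same family. Probe sequences were not used here, so a share of the signal from such relatives was not tested.

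Likeness of pattern was measured by Pearson's r over the 8 group means against the 180 other named probes. For AT1G11050 the closest were AT2G26190, a calmodulin-binding family gene (r = 0.991), AT2G18210 (0.991) and AT5G52760, a heavy-metal-associated domain gene (0.981). Their wild-type responses went from 1.71 to 0.20, from 1.40 to 0.10 and from 3.43 to 1.06 between 30 min and 3 h. Closest to AT3G51330 were AT3G13950 (r = 0.990), AT2G39980, an acyltransferase family gene (0.986), and AT2G04400, indole-3-glycerol phosphate synthase of tryptophan synthesis (0.979). Their wild-type responses were -0.03, -0.04 and 0.10 at 30 min, and 1.47, 1.01 and 2.88 at 3 h.

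AT3G09010 was closest to AT2G42360, a RING-type gene (r = 0.990), to AT1G26380, an FAD-linked oxidoreductase gene (0.989), and to AT2G18690 (0.980), which went from 1.53 to 2.74, from 2.26 to 4.30 and from 0.98 to 1.65. AT1G03220 was closest to AT3G54150, a methyltransferase family gene (r = 0.987), to the calmodulin-like gene CML42 (0.973), and to AT4G25030 (0.967). Wild-type responses of these 3 were 2.69 and 2.40, 2.40 and 1.96, and 0.45 and 0.63 at the early and the late time. With 8 points that share the same arrays and treatment, high values are common: 13 of 180 probes exceeded 0.9 for AT1G11050, 21 for AT3G51330, 25 for AT3G09010 and 20 for AT1G03220. Among the 4 genes r was 0.91 between AT3G09010 and AT1G03220 and 0.85 between AT3G09010 and AT3G51330. It was 0.72 between AT1G11050 and AT1G03220, 0.63 between the protease genes, 0.43 between the kinase genes and -0.05 between AT1G11050 and AT3G51330.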

How the data were processed

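The deposited values of the authors are log-scaled and were read as log2, since they run from 0.450 to 11.4. RNA was labelled with 1 dye (Alexa555), and poor spots were found with a Cy5-labelled oligonucleotide and removed, per the labels. The sources used here do not name the log base, background correction or normalization. Groups came from sample titles. The fit used limma 3.58.1 in R 4.3.3, with 8 group means over 24 arrays, and Benjamini-Hochberg adjustment over all 576 probes within each of 10 comparisons (threshold 0.05, no filter). It was tested on simulated data with independent noise on each array, which do not cover deviations shared within a set. Nothing says that sets were separate experiments, so p-values measure the spread between these samples. Same-numbered arrays deviated together in the 4 flg22 comparisons (r from 0.192 to 0.714), so numbers pair the samples there. Over all pairs of groups r ran from -0.0874 to 0.714 within a set and from -0.544 to 0.3 between sets. The main fit has no term for the set and so leaves this pairing out, and the set enters only as an alternative. Members and lists were chosen with earlier results of these data known. Named genes were the 4 members, the 3 named probes most like each, and listed relatives. A search of gene symbols and synonyms for kinase or protease words found 0 further probes, but gene descriptions were not searched, so further relatives may be among the probes. Gene names are from RefSeq (TAIR10.1). Alternatives were centring on medians, quantile normalization, a filter on the dimmest 25% of probes, another prior, the set as a replicate block, only compared groups, and leaving out arrays or sets.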

Additional observations from a re-analysis of the deposited data

Results flagged for a closer look

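The flg22 response differed between 30 min and 3 h for 2 of the 4 genes, by the test of the difference itself, and in opposite directions. For the kinase gene AT1G11050 it fell by 1.14 in wild type and fell by 0.74 in mpk11 (log2, 3 h less 30 min, in 3 of 3 sets of each). For the protease gene AT3G51330 it was larger by 1.15 in wild type and by 0.95 in mpk11, again in 3 of 3 sets of each. Array medians differed between mock and flg22 at both times, and the differences were -1.20, -0.86, 1.10 and 0.82 after median centring. For AT3G51330 the call held in 21 of 21 alternatives in each genotype. For AT1G11050 it held in 20 of 21 in wild type and in 15 of 21 in mpk11. Groups of 3 arrays were too small to look for single outlying arrays.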

How the results depend on the processing

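Of 778 recomputed values, 678 kept their direction and their side of the threshold, 32 lost a call, 2 gained one in the same direction and 66 turned in sign. Of these 66, 2 then passed (AT1G11050 in wild type at 3 h and AT3G51330 in mpk11 at 30 min, both after median centring), and 0 had passed before. Median centring shifted every flg22 response down, as it did the median change of all probes. AT3G09010 at 30 min became 0.03 in both genotypes (0.030 and 0.026) and AT1G03220 became 0.90 and 0.91 in wild type at 30 min and 3 h and 0.94 in mpk11 at 30 min, none passing. AT3G51330 at 30 min became -0.54 in wild type and -0.41 in mpk11, and AT1G11050 at 3 h became -0.40 and -0.26. Differences near 0 turned to -0.0037 (AT3G09010, response at 30 min between genotypes), 0.015 and 0.0090 (AT3G51330 and AT1G03220, time change in mock). Quantile normalization gave 0.82, 0.89, 0.76 and 0.95 for AT1G03220 (wild type at 30 min and 3 h, then mpk11). It gave -0.22 and -0.022 for AT1G11050 at 3 h, -0.21 for AT3G51330 in mpk11 at 30 min, and -0.053 for AT1G03220 between genotypes at 30 min. With only the compared groups in the fit, AT3G09010 (0.50) and AT1G03220 (1.37) in wild type at 30 min did not pass (limma adjusted p = 0.0660 and 0.0616).

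With sets as a replicate block no call changed, and AT1G03220 in wild type at 30 min stayed at 1.37 (limma adjusted p = 0.00240). Leaving out arrays or sets one at a time gave the following ranges. For AT1G03220 the response ran from 0.95 to 1.80 in wild type at 30 min, from 1.27 to 1.57 at 3 h, and from 0.93 to 1.86 in mpk11 at 30 min. Its time difference ran from -0.36 to 0.49 in wild type and from -0.32 to 0.90 in mpk11, its genotype difference in response from -0.39 to 0.49 at 30 min and from -0.067 to 0.76 at 3 h, its mean genotype difference from -0.051 to 0.25, and its mock change from -0.35 to 0.075. For AT1G11050 the time difference ran from -1.45 to -0.80 in wild type and from -0.93 to -0.52 in mpk11, and the 3 h response from -0.00066 to 0.21 and from 0.26 to 0.55. Its genotype difference ran from -0.41 to 0.21 at 30 min and from 0.075 to 0.53 at 3 h, its mean genotype difference from -0.035 to 0.063 and its mock change from -0.062 to 0.13. For AT3G09010 the 30 min response ran from 0.37 to 0.65 in wild type and from 0.48 to 0.55 in mpk11, the genotype difference from -0.11 to 0.12 at 30 min and from -0.084 to 0.34 at 3 h, the time difference from 0.17 to 0.49 in wild type and from 0.30 to 0.53 in mpk11, and the mock change from -0.042 to 0.10. For AT3G51330 the 30 min response ran from -0.16 to 0.035 in wild type and from -0.027 to 0.18 in mpk11, the genotype difference from 0.062 to 0.26 at 30 min and from -0.23 to 0.092 at 3 h, and the mean genotype difference from -0.18 to -0.058. Leaving out the dimmest probes removed AT3G09010, which has no value there. Signal over background is not known, which limits the reading of this dim probe. The cause of the changes with scaling was not tested.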
